A study of Mus musculus with 6 samples.

Results

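The genes described here move or buffer calcium, phosphate, bicarbonate, protons and magnesium in the enamel organ. They were taken by gene symbol from a list of 36 transport genes of enamel formation, and all 36 are among the 55487 genes of the table. RNA-seq was performed on dental epithelium of the first mandibular molar at PN2.5, with 3 libraries from *Wnt10aflox/flox* mice (control) and 3 from *K14-Cre;Wnt10aflox/flox* mice (cKO). Both groups carry the floxed *Wnt10a* alleles, and only the cKO mice carry Cre recombinase, driven by the keratin 14 promoter in epithelial cells. The controls have no Cre, so an effect of Cre itself and of the deletion cannot be told apart. Mice of either sex were used, and each library is a pool of several molars, 4 by the series text and 5 by the methods, so that p-values measure the spread between pools.

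Enamel is laid down by ameloblasts, which export calcium and phosphate to the growing crystals and later neutralise the acid that crystal growth releases. Calcium enters these cells mainly through store-operated channels: STIM proteins sense an emptied endoplasmic reticulum and open ORAI pores in the plasma membrane. Inositol trisphosphate receptors release calcium from the endoplasmic reticulum, SERCA pumps refill it, and calbindins buffer it in the cytosol. Plasma membrane pumps and sodium exchangers then push calcium out of the cell. Carbonic anhydrases and bicarbonate exchangers serve pH control, above all in the maturation stage that follows matrix secretion.

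The values are TPM, a unit scaled to transcript length and library size, so that levels can be compared between genes. TPM keep no sequencing depth, and no counting error can be given. The target gene *Wnt10a* measured 56.0, 51.2 and 57.9 TPM in control libraries, against 22.7, 21.8 and 32.2 TPM in cKO libraries. All 8 dental epithelial markers were present, with *Krt14* between 2190 and 2773 TPM. Odontoblast and mesenchyme markers were present too, summing to 3515 to 6895 TPM over 7 genes in control libraries, against 4447 to 5000 TPM in cKO libraries. The 6 skeletal muscle markers summed to at most 1.91 TPM in any library. cKO replicate 2 stood apart in its enamel matrix genes. *Amelx* took 8.65% of its TPM, against 16.5% to 20.6% in the other 5 libraries. In this bulk tissue, fewer cells of a type and less RNA per cell cannot be told apart.

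Of the 36 genes, 30 averaged 1 TPM or more across the 6 libraries and entered a limma test on log2(TPM + 1), where differences of weakly expressed genes are compressed. The criteria of the study (unadjusted p below 0.05, mean more than 20% away from that of the control) were met by 7 of the 30, all lower in the cKO. They were the calcium release channels *Itpr1* and *Itpr3*, the calcium pumps *Atp2a2* and *Atp2b4*, the bicarbonate transporters *Slc4a2* and *Slc4a4*, and the citrate transporter *Slc13a5*. Over all 13719 genes tested, 2.47% met the criteria in this direction. None of the 30 met them in the other direction, where the share of all genes was 1.55%. The background depended on the scaling, with 2.37% of all genes lower and 2.36% higher after quantile normalization, 2.43% and 2.30% with median-ratio scaling, and 5.17% and 0.824% when rescaled to protein-coding genes other than *Amelx* and *Ambn*. When the fit took replicate numbers as a block, 10 members met them as lower, and so did 6.61% of all genes. The block added *Slc12a2*, *Stim1* and *Slc20a2*, whose unadjusted limma p was 0.025, 0.0379 and 0.0433 in that fit. With limma p-values adjusted by Benjamini-Hochberg across the whole table, 0 of the 30 members passed 0.05 (each had an adjusted p of 1.00), against 0.0146% of all genes, while 7 had an unadjusted p below 0.05. The mean log2(TPM + 1) was lower in the cKO in 24 of the 30 members, and in 60.3% of all genes tested. The median log2 fold change was -0.33 over the 30 members and -0.07 over all genes tested. The groups did not overlap in 8 members, all lower in the cKO, where 6.13% of all genes were separated in that direction and 3.51% in the other. *Slc34a2*, counted in the 24 and in the 8, passed the 1 TPM filter only through its control libraries, so its direction was favoured by the filter.

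**Figure D1:**
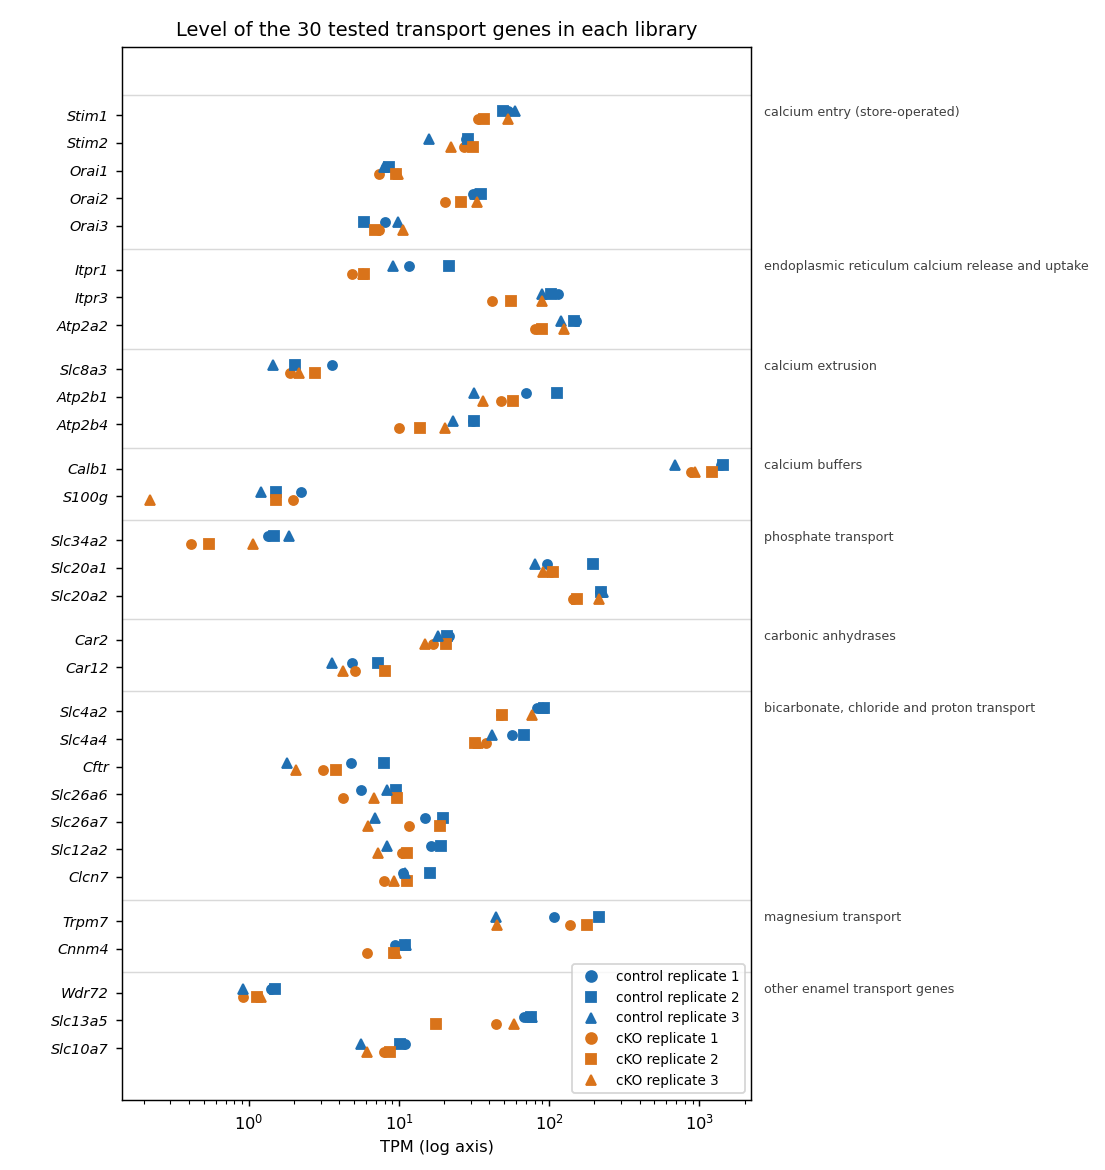
TPM of the 30 tested transport genes (log axis) in the 3 control libraries (blue) and the 3 cKO libraries (orange), grouped by role, with one symbol for each replicate number. *Calb1* lies above all the others, near 1000 TPM, and the blue and orange points overlap for most genes.

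Transcript length and ribosomal RNA moved with these counts. Levels of long transcripts tended to be lower in the cKO, as seen in a rank correlation (Spearman) of -0.48 over 12188 protein-coding genes, which do not serve as replicates. The members are long, with a median of 4362 bases over the 30 tested and 7931 over the 7 that met the criteria, against 3404.5 over protein-coding genes tested. Genes annotated as rRNA summed to 1362 to 3283 TPM in control libraries, against 8400 to 16291 TPM in cKO libraries, and the part of rRNA in the members' values was not tested. With every library corrected for length and GC content, *Itpr1* and *Slc4a2* met the criteria as lower, against 2.08% of all genes. *Stim2* met them as higher, against 2.44%. The median over the 30 members was then -0.19, and over all genes 0.0020.

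**Figure D2:**
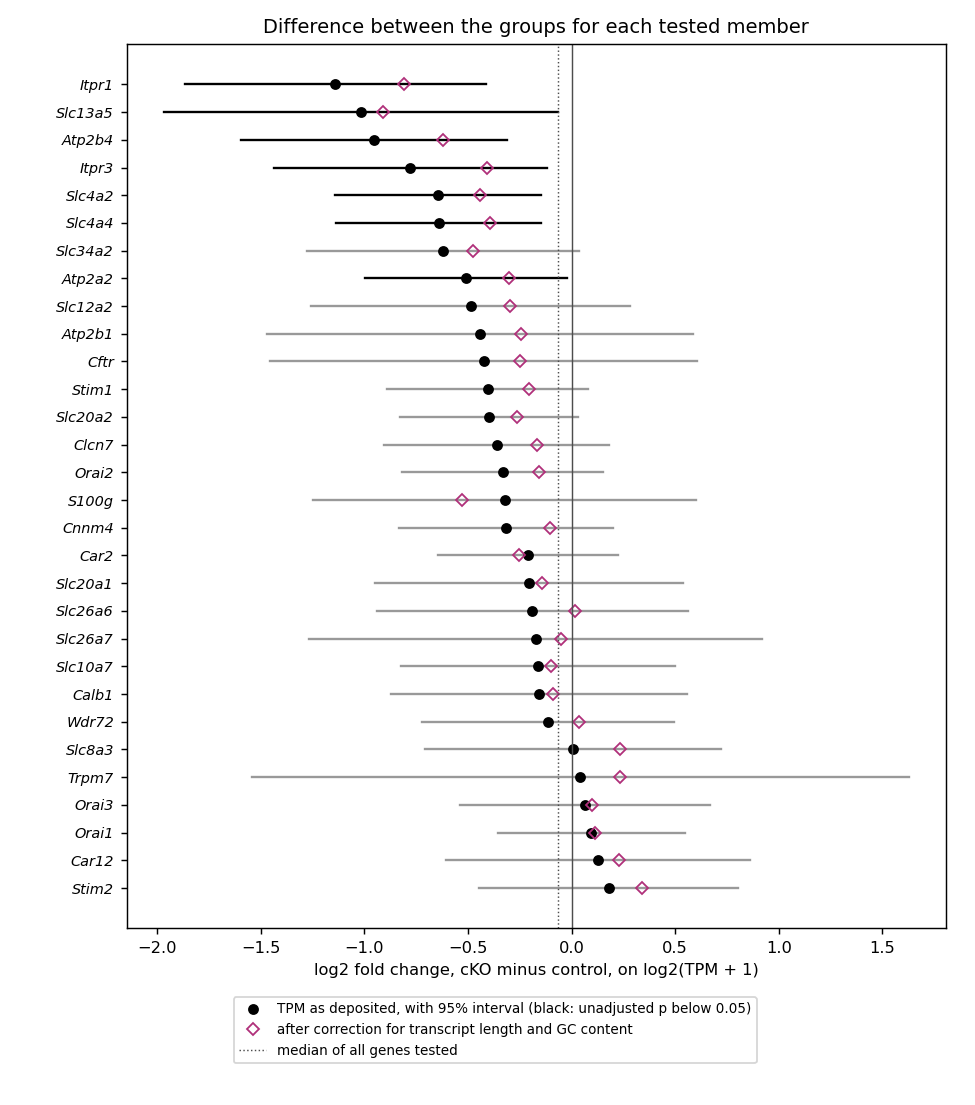
Log2 fold change (cKO minus control) of each tested member, with its 95% interval from limma, where black intervals mark the 7 genes that met the criteria and diamonds give the value once length and GC content are corrected for. Intervals of the other 23 genes include 0, and most diamonds lie closer to 0 than the dots.

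The genes of calcium release and refilling had the lowest median log2 fold change of the roles, -0.78, over only 3 tested members. All 3 met the criteria as lower in the cKO, against 2.47% of all genes tested. With length and GC content corrected for, *Itpr1* alone of the 3 did. *Itpr1*, which encodes the type 1 inositol trisphosphate receptor, measured 11.6, 21.5 and 9.16 TPM in control libraries (replicates 1, 2 and 3, the order used throughout), against 4.87, 5.84 and 5.74 TPM in cKO libraries. The groups did not overlap, and the control libraries were spread much more widely than the cKO libraries. On average the cKO stood at 38.9% of the control, or -1.14 in log2 fold change, SE 0.31 (limma, unadjusted p = 0.00742). It was -0.81 (limma, unadjusted p = 0.00327) once length and GC content were corrected for, and p stayed below 0.05 when any one library was left out. *Itpr3*, the type 3 receptor, measured 114, 103 and 89.8 TPM in control libraries, against 41.3, 55.3 and 89.5 TPM in cKO libraries. cKO replicate 3 lay just below the lowest control library, and the other cKO libraries were far below it. The log2 fold change was -0.78, SE 0.28 (limma, unadjusted p = 0.0266), and -0.41 (limma, unadjusted p = 0.12) after the correction. Without control replicate 1 or 2, or cKO replicate 1 or 2, its unadjusted limma p was 0.0861, 0.068, 0.0862 or 0.077. *Atp2a2* encodes the SERCA2 pump, which returns calcium to the endoplasmic reticulum. It measured 150, 146 and 119 TPM in control libraries, against 80.2, 89.0 and 126 TPM in cKO libraries, so that cKO replicate 3 lay inside the control range. Its log2 fold change was -0.51, SE 0.21 (limma, unadjusted p = 0.0424), and -0.30 (limma, unadjusted p = 0.212) after the correction. Leaving out those same 4 libraries in turn gave unadjusted limma p of 0.124, 0.102, 0.135 and 0.114, median-ratio scaling gave 0.0973 and limma without a mean-variance trend 0.0635.

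The type 3 receptor was the most abundant of the 3 in every library, at 4.79 to 9.80 times the level of *Itpr1* in the control and 8.48 to 15.6 times in the cKO. These ranges overlapped (two-sided exact permutation test, p = 0.6). *Itpr2* was between 0.43 and 1.03 TPM and was not tested. *Atp2a2* stayed above *Itpr3* in all 6 libraries, by 1.32 to 1.42 times in the control and 1.41 to 1.94 times in the cKO (two-sided exact permutation test, p = 0.2).

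Among the genes that push calcium out of the cell, *Atp2b4* was lower in the cKO. It encodes PMCA4, a plasma membrane calcium pump that red cells also use. It measured 31.2, 31.4 and 23.0 TPM in control libraries, against 10.03, 13.7 and 20.3 TPM in cKO libraries, without overlap. On average the cKO stood at 51.4% of the control, or -0.95 in log2 fold change, SE 0.27 (limma, unadjusted p = 0.00974), and p was below 0.05 with any one library left out and 0.0696 with length and GC content corrected for. The summed erythroid markers were also separated, at 1326 to 1978 TPM over 6 genes in control libraries, against 1161 to 1282 TPM in cKO libraries, with all 6 lower on average and *Hbb-bs* alone meeting the criteria, and their part in the level of *Atp2b4* was not tested. The related pump *Atp2b1* measured 69.6, 113 and 31.6 TPM in control libraries, against 47.6, 57.2 and 36.1 TPM in cKO libraries. Its groups overlapped, with a log2 fold change of -0.44 and a 95% interval from -1.47 to 0.58. *Atp2b1* was above *Atp2b4* in every library, by 1.38 to 3.61 times in the control and 1.78 to 4.75 times in the cKO.

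The sodium exchangers were low. *Slc8a3* (NCX3) measured 3.57, 2.02 and 1.44 TPM in control libraries, against 1.88, 2.77 and 2.15 TPM in cKO libraries, and its log2 fold change was 0.0075, with a 95% interval from -0.71 to 0.72. *Slc8a1* (NCX1) did not exceed 0.66 TPM. *Slc24a4* encodes NCKX4, the calcium exchanger of maturation-stage ameloblasts, whose loss causes enamel defects. It measured 0.39, 0.57 and 0.47 TPM in control libraries, against 0.19, 0.18 and 0.11 TPM in cKO libraries. The groups did not overlap, but all 6 levels are below the 1 TPM set for testing. In the fit without that filter, its log2 fold change was -0.35, SE 0.083 (limma, unadjusted p = 0.00531), on a scale that compresses such low values.

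**Figure D3:**
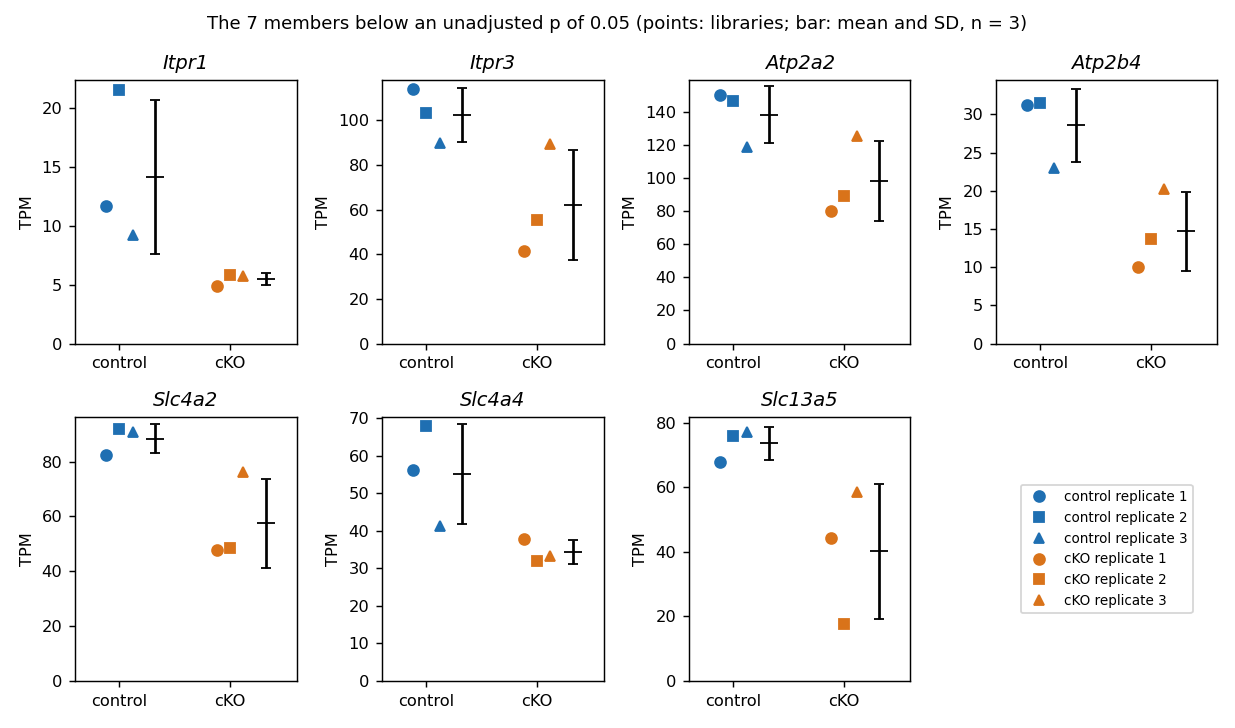
TPM of the 7 members that met the criteria, by group, with one point for each library and a bar for the mean and SD (n = 3). Control and cKO points are separated for 6 of them, and for *Atp2a2* cKO replicate 3 lies inside the control range.

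With all 6 libraries, no block and no correction, none of the 5 genes of store-operated entry met the criteria, and their groups overlapped. Without cKO replicate 3, *Stim1* and *Orai2* met them as lower (limma, unadjusted p = 0.0133 and 0.0418). *Stim1*, a sensor of the calcium store, measured 53.4, 48.9 and 59.2 TPM in control libraries, against 33.6, 36.7 and 52.9 TPM in cKO libraries. Only cKO replicate 3 reached into the control range, and the log2 fold change was -0.41, with a 95% interval from -0.89 to 0.08 (limma, unadjusted p = 0.0896, or 0.0379 with the block). The second sensor, *Stim2*, measured 27.8, 28.6 and 15.8 TPM in control libraries, against 27.2, 31.0 and 22.0 TPM in cKO libraries, with replicate 3 the lowest of both groups. Its log2 fold change was 0.18 (95% interval -0.45 to 0.80), and 0.34 (limma, unadjusted p = 0.0476) after the correction for length and GC content. *Orai2* was the most abundant pore gene, at 31.3, 35.2 and 32.0 TPM in control libraries, against 20.2, 26.0 and 32.8 TPM in cKO libraries. *Orai1* measured 8.21, 8.52 and 7.96 TPM in control libraries, against 7.30, 9.60 and 9.89 TPM in cKO libraries. *Orai3* measured 8.04, 5.83 and 9.81 TPM in control libraries, against 7.30, 6.92 and 10.6 TPM in cKO libraries. The groups overlapped for each pore gene, with log2 fold changes of -0.33, 0.095 and 0.064. The ratio of *Orai2* to *Orai1* was 3.81 to 4.13 in the control and 2.71 to 3.32 in the cKO, without overlap (exact permutation, two-sided, p = 0.1, which is the least this design can give). This was 1 of 11 ratios between members that were compared, and no p is below 0.05 before or after adjustment.

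The cytosolic buffer *Calb1*, calbindin-D28k, was the most abundant member, above 99.2% of the tested genes in the control. It alone made up 39.9% to 55.6% of the summed TPM of the 36 genes in a library. Its level measured 1390, 1431 and 691 TPM in control libraries, against 873, 1221 and 929 TPM in cKO libraries. All cKO libraries lay inside the control range, and the log2 fold change was -0.16, with a 95% interval from -0.87 to 0.56. *S100g*, calbindin-D9k, measured 2.22, 1.52 and 1.20 TPM in control libraries, against 1.98, 1.51 and 0.22 TPM in cKO libraries. *Calb2*, calretinin, did not exceed 0.08 TPM. Of the calbindin transcripts, *Calb1* alone was abundant.

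Phosphate enters cells through sodium cotransporters. The broadly expressed *Slc20a2* (PiT-2) measured 219, 220 and 227 TPM in control libraries, against 143, 154 and 215 TPM in cKO libraries. Its control libraries lay within a narrow range and the cKO libraries lay below it, with cKO replicate 3 close to the control. The log2 fold change was -0.40, SE 0.18 (limma, unadjusted p = 0.064, or 0.0433 with the block). It also passed 0.05 after quantile normalization and when rescaled. *Slc20a1* (PiT-1) measured 96.5, 195 and 80.8 TPM in control libraries, against 102, 106 and 90.8 TPM in cKO libraries, and its groups overlapped. *Slc34a2* (NaPi-IIb) measured 1.33, 1.46 and 1.84 TPM in control libraries, against 0.41, 0.54 and 1.07 TPM in cKO libraries, without overlap, and its log2 fold change was -0.62 (limma, unadjusted p = 0.0608). Its mean was 1.54 TPM in the control and 0.67 TPM in the cKO. It thus passed the 1 TPM filter only through the group where it is high, and its separation cannot be read as support. *Slc20a2* exceeded *Slc20a1* in every library, by 1.13 to 2.80 times in the control and 1.40 to 2.37 times in the cKO.

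Both abundant bicarbonate transporters met the criteria as lower in the cKO. *Slc4a2* encodes AE2, which exchanges chloride for bicarbonate. It measured 82.5, 92.0 and 90.8 TPM in control libraries, against 47.8, 48.5 and 76.3 TPM in cKO libraries, without overlap. The log2 fold change was -0.64, SE 0.21 (limma, unadjusted p = 0.0177), and -0.44 (limma, unadjusted p = 0.0401) after the correction for length and GC content. Without cKO replicate 1 or 2 its unadjusted limma p was 0.0645 or 0.0616, and with median-ratio scaling it was 0.0667. The exons of *Slc4a2* share 1141 bases with those of *Fastk* on the opposite strand, and whether the counting used strand is not given in the sources used here, so reads there cannot be told apart. *Fastk* had a log2 fold change of -0.083 and overlapping groups. *Slc4a4* encodes NBCe1, which moves sodium together with bicarbonate. It measured 56.2, 68.0 and 41.4 TPM in control libraries, against 38.0, 32.0 and 33.3 TPM in cKO libraries, without overlap, and its log2 fold change was -0.64, SE 0.21 (limma, unadjusted p = 0.0182). After the correction the unadjusted p from limma was 0.0675. Without control replicate 1 or 2, or cKO replicate 2, its unadjusted limma p was 0.0578, 0.05 or 0.0569. The ratio of *Slc4a2* to *Slc4a4* spanned 1.35 to 2.20 in the control and 1.26 to 2.29 in the cKO.

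Of the remaining anion and proton transporters, the 5 tested genes had lower means in the cKO and overlapping groups. *Cftr*, the chloride channel of cystic fibrosis, measured 4.77, 7.99 and 1.80 TPM in control libraries, against 3.10, 3.82 and 2.05 TPM in cKO libraries. *Slc26a7*, an anion exchanger of the same gene family as *Slc26a6*, measured 14.8, 19.7 and 6.87 TPM in control libraries, against 11.6, 18.6 and 6.25 TPM in cKO libraries. *Slc26a6* measured 5.55, 9.56 and 8.27 TPM in control libraries, against 4.24, 9.64 and 6.77 TPM in cKO libraries. In all 3 genes replicate 2 was the highest of both groups. *Slc12a2* (NKCC1), which loads cells with chloride, measured 16.4, 18.9 and 8.26 TPM in control libraries, against 10.5, 11.3 and 7.23 TPM in cKO libraries. *Clcn7*, a lysosomal chloride-proton exchanger that osteoclasts also need, measured 10.5, 16.1 and 11.0 TPM in control libraries, against 7.92, 11.2 and 9.26 TPM in cKO libraries. Their log2 fold changes lay between -0.49 for *Slc12a2* and -0.17 for *Slc26a7*, with unadjusted p from 0.161 to 0.72 from limma, and with the block *Slc12a2* met the criteria. *Slc26a1*, a sulfate and oxalate transporter, measured 1.01, 0.89 and 0.94 TPM in control libraries, against 0.57, 0.70 and 0.73 TPM in cKO libraries. Its groups did not overlap, and with a mean under 1 TPM it was not tested.

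Of the carbonic anhydrases, which form bicarbonate from carbon dioxide, *Car2* measured 21.6, 20.7 and 18.1 TPM in control libraries, against 16.7, 20.4 and 14.9 TPM in cKO libraries. Its log2 fold change was -0.21, with a 95% interval from -0.64 to 0.22. *Car2* is also an enzyme of red cells and osteoclasts. The 6 osteoclast markers summed to 99.4, 40.7 and 22.7 TPM in control libraries, against 46.8, 130 and 17.2 TPM in cKO libraries, a wider spread than that of *Car2*, and their part in its level was not tested. Membrane-bound *Car12* measured 4.84, 7.25 and 3.60 TPM in control libraries, against 5.09, 8.06 and 4.24 TPM in cKO libraries, and its log2 fold change was 0.13 (95% interval -0.60 to 0.86). The secreted enzyme *Car6* was between 0.39 and 1.10 TPM.

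For magnesium, the channel kinase *Trpm7* had the largest standard error of the 30 members on log2(TPM + 1), 0.67. It measured 107, 216 and 43.9 TPM in control libraries, against 138, 178 and 45.2 TPM in cKO libraries. Replicate 2 was the highest and replicate 3 the lowest in both groups, and the 95% interval of its log2 fold change ran from -1.54 to 1.63. *Cnnm4*, whose loss in humans causes Jalili syndrome with enamel defects, measured 9.33, 11.0 and 11.1 TPM in control libraries, against 6.14, 9.20 and 9.61 TPM in cKO libraries, with a log2 fold change of -0.32 (95% interval -0.83 to 0.20).

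The spread by replicate number was seen in other members as well. Replicate 2 was the highest of both groups in 12 of the 30 genes, or 40.0%, and in 41.8% of all genes tested. Replicate 3 was the lowest of both groups in 11 of the 30, or 36.7%, and in 37.2% of all genes. Replicate 1 was the lowest of both groups in 23.3% of the members and 8.70% of all genes, and replicate 3 was the highest of both in 6 of the 30 members and 10.9% of all genes.

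The last group holds 3 genes known from enamel disease. *Slc13a5* encodes the sodium-citrate cotransporter NaCT. It measured 67.7, 75.8 and 77.2 TPM in control libraries, against 44.4, 17.5 and 58.4 TPM in cKO libraries, a range below that of the control, and cKO replicate 2 was far below the rest. On average the cKO stood at 54.5% of the control, or -1.02 in log2 fold change, SE 0.40 (limma, unadjusted p = 0.0391). With length and GC content corrected for, the unadjusted p from limma was 0.0757. Leaving out control replicate 1, 2 or 3 or cKO replicate 1 gave an unadjusted limma p of 0.0751, 0.0993, 0.0925 or 0.0617. It was 0.052 without the filter on low values, 0.0642 after quantile normalization and 0.0874 with median-ratio scaling. Without cKO replicate 2 its log2 fold change was -0.52 (limma, unadjusted p = 0.0336). *Wdr72*, a vesicle protein needed in enamel maturation, measured 1.40, 1.5 and 0.91 TPM in control libraries, against 0.91, 1.14 and 1.21 TPM in cKO libraries. *Slc10a7*, linked to skeletal dysplasia with amelogenesis imperfecta, measured 10.9, 10.1 and 5.58 TPM in control libraries, against 7.94, 8.75 and 6.10 TPM in cKO libraries. The log2 fold changes of these 2 genes were -0.11 and -0.16, and their groups overlapped.

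The low cKO value of *Slc13a5* came from the library that was also low in enamel matrix transcripts. *Ambn*, which encodes ameloblastin of the secretory ameloblast, measured 31405, 32180 and 33061 TPM in control libraries, against 24646, 8562 and 26263 TPM in cKO libraries. For each 1000 TPM of *Ambn*, the level of *Slc13a5* measured 2.16, 2.36 and 2.33 TPM in control libraries, against 1.80, 2.04 and 2.22 TPM in cKO libraries, with overlap between the groups (exact permutation test, two-sided, p = 0.2). On the same scale, cKO libraries spanned 3.25 to 10.4 TPM for *Atp2a2* and 1.94 to 5.66 TPM for *Slc4a2*, with cKO replicate 2 the highest. The comparison with *Ambn* was chosen after the values had been seen. *Ambn* is 1 of 4 secretory ameloblast genes read, and they were not lower to the same degree. The cKO mean stood at 61.5% of the control for *Ambn*, 79.6% for *Amelx*, 70.6% for *Enam* and 75.1% for *Mmp20*. *Slc13a5* relative to *Amelx*, *Enam* or *Mmp20* was not computed, so the closeness described here holds for *Ambn* alone. Relative to *Krt14* in place of *Ambn*, *Slc13a5* was 26.9 to 34.6 TPM for each 1000 TPM in control libraries, against 7.52 to 21.3 TPM in cKO libraries.

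**Figure D4:**
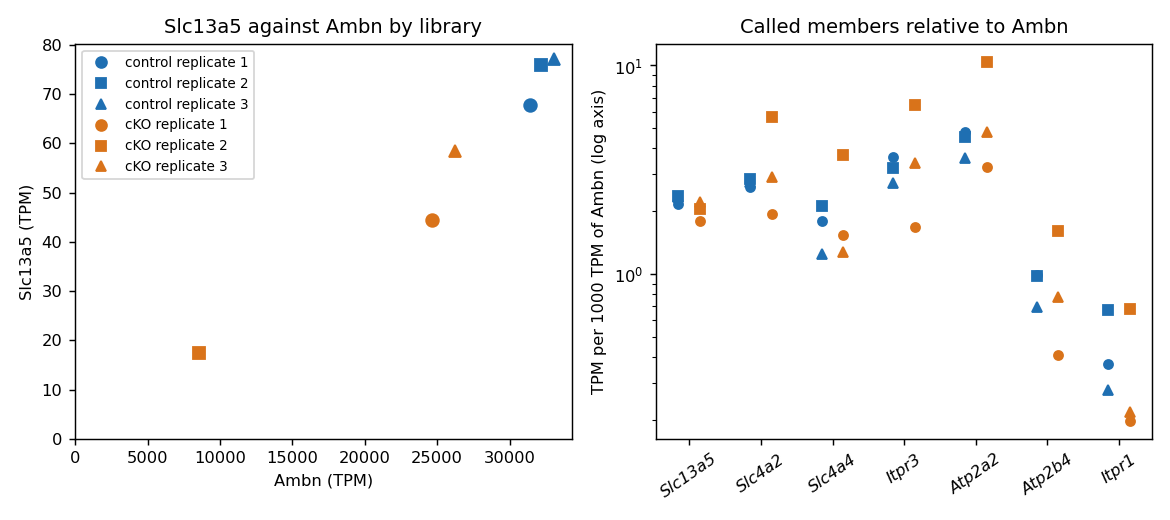
Left, *Slc13a5* against *Ambn* in TPM, one point for each library, and right, the 7 members that met the criteria as TPM for each 1000 TPM of *Ambn* (log axis). The *Slc13a5* points of both groups lie between 1.80 and 2.36 on the right, while cKO replicate 2 is the highest point for the other 6 genes.

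The 7 genes lie on 5 chromosomes of GRCm38. *Itpr1* (ENSMUSG00000030102) is on chromosome 6 from 108213096 to 108551109 (62 exons and 9870 bases in the longest transcript). *Itpr3* (ENSMUSG00000042644) is on chromosome 17 from 27057304 to 27122223, with 58 exons and 8990 bases. *Atp2b4* (ENSMUSG00000026463) is on chromosome 1 from 133699457 to 133801041, on the reverse strand, with 21 exons and 11725 bases. Chromosome 5 holds *Slc4a2* (ENSMUSG00000028962) from 24423837 to 24440950, *Slc4a4* (ENSMUSG00000060961) from 88886818 to 89239653 and *Atp2a2* (ENSMUSG00000029467) from 122453513 to 122502225. *Slc13a5* (ENSMUSG00000020805) is on chromosome 11 from 72241989 to 72267222, on the reverse strand, with 12 exons and 3329 bases, the shortest transcript of the 7.

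Promoter windows, from 250 bases before to 50 after a RefSeq start on GRCm38.p6, matched 5 of the 7 genes with 8 windows. They are shown because the 7 genes met the unadjusted criteria as lower in mice with a Wnt ligand gene deleted in epithelium. All 8 were searched on both strands for 2 short motifs. These were CTTTGA, the core bound by TCF/LEF factors of the Wnt pathway, and TGGGAA, the core bound by the Notch factor RBPJ, and neither motif contains the other. CTTTGA was found in 0 of the 8 windows, against 16.0% of all 32851 windows of this length. TGGGAA was found in 3 of the 8, against 25.6%. Over the 28 windows of 22 member genes, CTTTGA was found in 1 (3.57%) and TGGGAA in 6 (21.4%), both shares below those of all windows. The 8 windows differ in composition from the whole set, where the median number of CpG (C followed by G) was 7. They held 30 (*Itpr3*), 4 (*Atp2b4*), 37 and 16 (*Slc4a2*), 50 and 3 (*Slc4a4*), and 25 and 17 (*Slc13a5*). The comparison was not matched for composition, the windows are few, and none of these shares was tested. A match is a description of the letters and not a bound site. The windows of *Atp2b4* at chr1:133753698-133753997 (reverse strand, inside the annotated gene), *Slc4a4* at chr5:88887010-88887309 (forward strand) and *Slc13a5* at chr11:72267112-72267411 (reverse strand) are printed 5′ to 3′, with TGGGAA or its reverse complement TTCCCA in capitals. *Atp2b4* has 2 matches, *Slc4a4* has 1 and *Slc13a5* has none.
Atp2b4: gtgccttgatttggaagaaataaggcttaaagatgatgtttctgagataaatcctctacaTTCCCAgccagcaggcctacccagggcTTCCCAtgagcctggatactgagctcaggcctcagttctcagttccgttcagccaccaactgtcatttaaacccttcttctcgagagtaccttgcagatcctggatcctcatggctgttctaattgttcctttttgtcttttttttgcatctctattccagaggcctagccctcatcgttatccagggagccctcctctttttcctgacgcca
Slc4a4: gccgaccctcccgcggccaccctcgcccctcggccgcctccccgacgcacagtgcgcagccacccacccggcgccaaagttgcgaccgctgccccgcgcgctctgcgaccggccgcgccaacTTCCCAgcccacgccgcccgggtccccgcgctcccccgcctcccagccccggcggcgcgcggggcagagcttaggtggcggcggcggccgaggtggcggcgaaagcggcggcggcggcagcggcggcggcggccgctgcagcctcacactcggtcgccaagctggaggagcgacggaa
Slc13a5: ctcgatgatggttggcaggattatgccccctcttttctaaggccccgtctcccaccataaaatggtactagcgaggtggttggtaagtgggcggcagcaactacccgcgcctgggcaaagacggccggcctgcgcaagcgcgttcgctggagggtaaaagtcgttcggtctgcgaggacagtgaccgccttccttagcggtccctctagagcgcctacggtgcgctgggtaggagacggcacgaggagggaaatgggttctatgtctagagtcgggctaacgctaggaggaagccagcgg

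A wider list of 127 other transport genes was read beside the members: other calcium pumps and channels, anion exchangers, carbonic anhydrases, proton pump subunits, magnesium and citrate transporters. Of these, 82 were tested and 2 met the criteria, both lower in the cKO, which is 2.44% of the list. The mean log2(TPM + 1) was lower in 60 of the 82, and the median log2 fold change was -0.16. *Xpr1*, the phosphate exporter, measured 40.0, 39.0 and 20.7 TPM in control libraries, against 19.5, 20.2 and 20.5 TPM in cKO libraries. Control replicate 3 was level with the cKO libraries, and the log2 fold change was -0.64 (limma, unadjusted p = 0.0459). *Slc12a4*, a potassium-chloride cotransporter, measured 196, 240 and 212 TPM in control libraries, against 134, 115 and 203 TPM in cKO libraries, with overlap, and its log2 fold change was -0.55 (limma, unadjusted p = 0.0452). None of the 18 tested subunits of the vacuolar proton pump met the criteria, and their median log2 fold change was -0.027. In this fit the share of the wider list that met the criteria was near the 2.47% of all genes. Its share with a lower mean was 73.2%, against 60.3% of all genes, and the median of all genes was -0.07. The share called lower was 12.0% against 5.17% when rescaled, and 11.0% against 4.42% without cKO replicate 3. It was 1.22% against 2.43% with median-ratio scaling. The difference between the 2 lists was not tested.

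cKO replicate 3 was the highest cKO library in 5 of the 7 genes that met the criteria (*Itpr3*, *Atp2a2*, *Atp2b4*, *Slc4a2* and *Slc13a5*). The share of all genes in which it was the highest cKO library was not computed, so this count is not read as particular to the members. Of the cKO libraries, cKO replicate 3 also had the highest *Wnt10a*, 32.2 TPM, the lowest rRNA sum, 8400 TPM, and the highest *Amelx* share, 18.1%. These are values of a single library. The part of each in the members' levels was not tested. Without cKO replicate 3, 11 of the 30 members met the criteria as lower, and so did 4.42% of all genes. Without control replicate 1, cKO replicate 1 or cKO replicate 2, 3 members did, against 0.918%, 0.663% and 1.29% of all genes. Without control replicate 2, 4 members did, against 1.44% of all genes, and without control replicate 3, 10 did, against 6.70%. *Itpr1* and *Atp2b4* were among the members that met them in each of these fits.

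**Figure D5:**
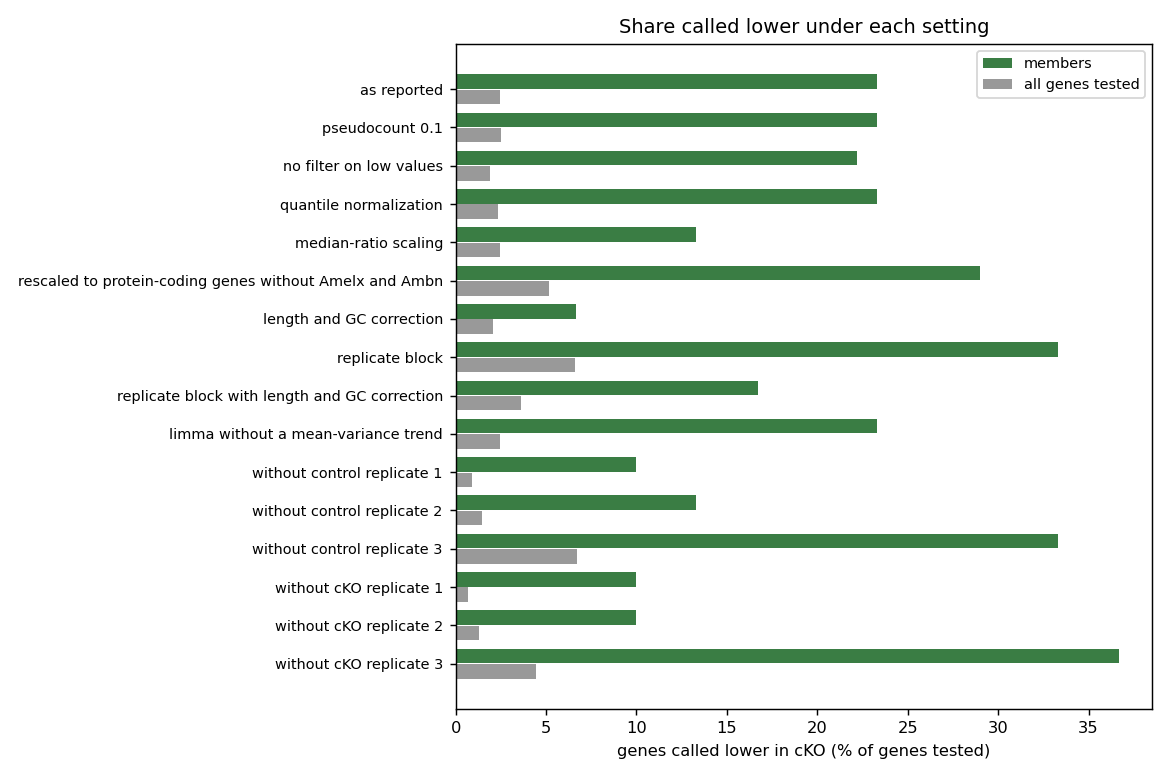
Share of genes called lower in the cKO under each setting, for the tested members (green) and for all genes tested (grey). The members' share runs from 6.67% to 36.7% and is above that of all genes in every setting.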

How the data were processed

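RNA-seq was analysed from 3 control and 3 cKO libraries of molar dental epithelium at PN2.5. According to the methods, the authors trimmed the reads (SeqPrep, Sickle) and used HISAT2 and RSEM, and the submitters' processing notes name HISAT2 and StringTie. One value per gene and library was deposited. The methods speak of FPKM, but the deposited values were read as TPM because the columns sum to 983952 to 993946. The genome build and the strand setting of the counting are not given in the sources used here. Positions, gene types, lengths and GC content were taken from GENCODE M21 (GRCm38), which holds 99.4% of the gene identifiers.

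The 13719 genes that averaged 1 TPM or more were tested on log2(TPM + 1) with limma 3.58.1 in R 4.3.3, with a mean-variance trend and without a block, and p-values were adjusted by Benjamini-Hochberg. For the correction, each library's residuals from the gene means were modelled on length and GC content (splines, 4 degrees of freedom, 13707 genes) and removed. Ratios were compared by exact permutation. The sample titles call the libraries biological replicates. The members, lists and tests were chosen with earlier results of these data known. By rule, every member is named, with every library where tested, and from the wider list those that met the criteria. Alternatives changed the pseudocount, filter, scaling, trend and block, applied the correction, or left out 1 library. Protein sequences were not used here.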

Additional observations from a re-analysis of the deposited data

How the results depend on the processing

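The median log2 fold change of the members stayed negative, from -0.45 to -0.19, in every alternative run. The number of members that met the criteria (7) and the number with an unadjusted p below 0.05 (7) were both 4 with median-ratio scaling and 3 (2 lower and 1 higher) with the length and GC correction (all genes: 2.43% lower, then 2.08% lower and 2.44% higher), and both ranged from 3 to 11 with one library left out (all genes: 0.663% to 6.70% lower). The wider list, with 2 of 82, had 1 with median-ratio scaling (1.22% lower, against 2.43% of all genes). It had 10 when rescaled (protein-coding genes, leaving out *Amelx* and *Ambn*), or 12.0% lower, against 5.17%. There were 8 with the replicate block (9.76% lower, against 6.61%). There were 5 when that block was joined to the correction, 2 lower and 3 higher (2.44% and 3.66%, against 3.61% and 4.48%). The list had 1 without a mean-variance trend (1.22% lower, against 2.47%). With one library left out, its count ran from 0 (without control replicate 1) to 9 (without cKO replicate 3). The shares lower were then 0.0% against 0.918% of all genes, and 11.0% against 4.42%. With the replicate block, 10 members met the criteria. Deviations from the group means of same-numbered libraries had r of -0.08, 0.29 and 0.40, and not every value was above 0.1, so the numbers were not taken to pair the libraries. Replicate 2 was nonetheless the highest of both groups in 41.8% of all genes and replicate 3 the lowest in 37.2%, and the block raised the calls over all genes from 552 to 1315. The methods speak of pairs without saying what pairs them. No member had an adjusted p below 0.05 in any limma fit.

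Several members with small differences changed sign. *Slc8a3* was -0.025 when rescaled and -0.19 to 0.26 with one library left out. *Trpm7* was -0.014 with quantile normalization, -0.0066 when rescaled and -0.55 to 0.63 with one library left out. *Slc26a6* was 0.017 and *Wdr72* 0.034 with the length and GC correction, with or without the block. With one library left out, *Slc26a6* was -0.43 to 0.076, *Stim2* -0.087 to 0.32, *Orai3* -0.11 to 0.22, *Calb1* -0.50 to 0.023, *S100g* -0.58 to 0.066, *Slc20a1* -0.46 to 0.17, *Car12* -0.099 to 0.35 and *Slc26a7* -0.57 to 0.20. The cause of these changes was not tested. The median of all genes moved from -0.07 to -0.12 when rescaled, to -0.18 without control replicate 3 and to -0.16 without cKO replicate 2. TPM keep no depth, so counting error is unknown.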

Other observations

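Markers of other cells were read across the same libraries. The 4 secretory ameloblast genes summed to 199870 to 239080 TPM in control libraries, against 95855 to 208290 TPM in cKO libraries. The 3 maturation genes found in the table summed to 253 to 359 TPM, against 268 to 298 TPM. *Klk4*, a protease of enamel maturation, measured 12.2, 9.82 and 23.0 TPM in control libraries, against 10.8, 3.19 and 20.2 TPM in cKO libraries. The 5 endothelial markers summed to 64.2 to 104 TPM, against 51.0 to 76.3 TPM, with *Cdh5* alone meeting the criteria. The 4 leukocyte markers summed to 39.8 to 51.5 TPM, against 34.6 to 40.7 TPM, and the 4 nerve markers to 106 to 119 TPM, against 90.0 to 139 TPM.

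Summed over the 36 transport genes, TPM came to 2635, 2971 and 1732 in control libraries, against 1746, 2197 and 1926 in cKO libraries, with overlap. Leaving out *Calb1*, it was 1245, 1540 and 1041 TPM, against 873, 976 and 998 TPM, and the groups did not overlap, though control replicate 3 lay close to cKO replicate 3. This sum is weighted to the abundant members *Slc20a2*, *Atp2a2*, *Slc20a1*, *Trpm7* and *Itpr3*, whose values are given above. It is therefore not a separate result, and it was not tested.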
